A study of Homo sapiens with 24 samples.

Results

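HCT-116 cells carrying a doxycycline-inducible dominant negative Tcf4 were compared after exposure to doxycycline and sodium butyrate together (DoxyNaB) and with neither agent (Ctl). The arrays chosen were those titled double treated and untreated, paired by experiment number, which gave 12 of the 24 arrays of the study, with n = 6 in each group. The remaining arrays, 6 with doxycycline alone (Doxy) and 6 with butyrate alone (NaB), were used to give the sum of the single agents against which the combined effect was set. HCT-116 is an established line from a human colorectal carcinoma, and every group, Ctl included, was the same single clone, stably transfected with a Tet repressor and with FLAG-tagged DN-Tcf4 under a Tet-controlled promoter. Cells were given doxycycline at 4 µg/ml or none, followed by a cotreatment of 17.5 hr in which butyrate at 5 mM was present or absent. The 6 experiments were described as biological replicates.

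In canonical Wnt signaling, beta-catenin escapes degradation, enters the nucleus and joins DNA-bound Tcf/Lef factors to switch on target genes such as AXIN2. HCT-116 cells carry a mutant beta-catenin that is not degraded, so this output runs without a ligand. DN-Tcf4 keeps the DNA-binding part of Tcf4 (gene TCF7L2) and lacks the part that binds beta-catenin, so it occupies Tcf sites without activating them. Butyrate, made by bacteria that ferment fiber in the colon, inhibits histone deacetylases and is known to stop the division of colorectal cancer cells. The study raised DN-Tcf4 to a high protein level only by giving both agents, and the question was which effects of butyrate need Tcf-driven transcription.

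TCF7L2, the gene of Tcf4, was read first, through its 4 probes on the array. These probes are shown because they lie at different places along the gene and responded differently. All but the most 3′ one, in order along chromosome 10 of build NCBI36, plus strand, were as follows.
TCF7L2 probe at chr10:114714311-114714370: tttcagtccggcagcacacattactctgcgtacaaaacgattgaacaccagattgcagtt
TCF7L2 probe at chr10:114895793-114895852: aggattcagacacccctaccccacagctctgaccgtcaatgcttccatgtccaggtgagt
TCF7L2 probe at chr10:114901475-114901534: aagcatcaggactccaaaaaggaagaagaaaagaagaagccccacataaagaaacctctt
The most 3′ probe lies at 114915968 to 114916027 of the same strand. The RNA of the cell's own TCF7L2 and that of the introduced DN-Tcf4 cannot be told apart by these probes where both hold the probe's sequence. Which of the probe sequences DN-Tcf4 holds was not given by the study.

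The 3 probes toward the 3′ end rose strongly with both agents, and the most 5′ probe fell. Levels are given as log2 of the probe's signal over the array's 75th percentile, so that they can be set against other arrays but not against other probes. The probe that starts at 114895793 had a TCF7L2 level from 0.19 to 1.42 (median 0.32) on the Ctl arrays and from 4.05 to 6.28 (median 4.57) on the DoxyNaB arrays. The lowest DoxyNaB array thus lay well above the highest Ctl array, and the median was 0.45 with doxycycline alone and 1.52 with butyrate alone. The combined rise was 4.28 ± 0.14 on the log2 scale (SE, n = 6 experiments), or 19.4-fold, against 0.04 for doxycycline and 1.06 for butyrate. The combined level therefore exceeded the sum of the single agents by 3.18 ± 0.20 on the log2 scale (adjusted p = 5.51e-08, limma). By experiment this excess ran from 2.65 to 3.66.

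The TCF7L2 probe that starts at 114901475 rose by 3.87 ± 0.36, from a Ctl median of -1.86 to a DoxyNaB median of 1.49, and exceeded the sum by 3.13 (adjusted p = 1.48e-03). Without experiment 2 that excess was 3.16 and missed the threshold (adjusted p = 0.0101), as it did without experiment 5 (3.08, adjusted p = 0.0122). The most 3′ TCF7L2 probe was well above background on 1 of the 6 Ctl arrays and on all 6 DoxyNaB arrays, with levels from -6.45 to -4.36 and from -0.60 to 1.63. The most 5′ TCF7L2 probe went the other way, from a range of -2.79 to -2.09 on the Ctl arrays to one of -4.75 to -2.83 on the DoxyNaB arrays. Its ranges did not overlap, its change was -1.34 ± 0.25 (adjusted p = 1.13e-04) and its departure from the sum, -1.62, did not pass the test (adjusted p = 0.0195). This fall of the 5′ probe missed the call after another background correction (normexp).

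**Figure D1:**
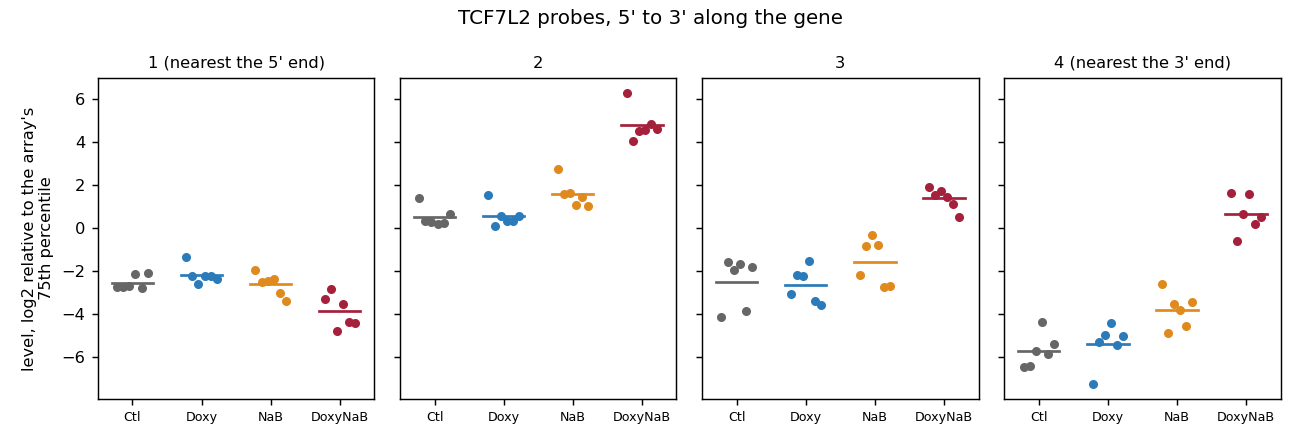
Levels of the 4 TCF7L2 probes under the 4 treatments, 1 panel per probe ordered from the 5′ end, on a log2 axis relative to each array's 75th percentile, with 1 point per experiment (n = 6) and a bar at the mean. With both agents the 3 probes toward the 3′ end lie above the other treatments and the most 5′ probe lies below Ctl.

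The combined treatment changed many genes, with more rises than falls under the scaling used here. Of 13277 genes tested, 4499 (33.9%) differed by more than 2-fold from Ctl at an adjusted p under 0.01 (limma, with the experiment as a block). There were 2702 rises (20.4%) and 1797 falls (13.5%). The change exceeded 4-fold in 1320 genes and 16-fold in 107. Butyrate alone, measured against the same Ctl arrays, changed 4398 genes (33.1%). Doxycycline alone changed 10 genes (0.0753%), and 18 probes (0.0949%). The split between rises and falls depends on the scaling. Of the 18966 probes tested 32.4% were called, and rises made up 62.3% of these, 47.6% after quantile normalization and 25.3% after scaling to the array median, while the median change over all genes was 0.10, -0.02 and -0.52 respectively. The median of a gene group is therefore given beside the 0.10 of all genes.

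The largest rise among genes measured on every array of both groups was that of DHRS2, a short-chain dehydrogenase/reductase known as a butyrate-induced gene. Its level ran from -1.81 to -0.61 (median -1.29) on the Ctl arrays and from 5.86 to 6.73 (median 6.20) on the DoxyNaB arrays, with no overlap. The rise was 7.42 ± 0.19, or 171-fold (adjusted p = 1.02e-15), and butyrate alone gave 7.48. Several of the other genes are known from neurons and neuroendocrine cells. CEND1, which drives neuronal precursors out of the cell cycle, rose by 5.75 ± 0.21 from a Ctl median of -2.82 to a DoxyNaB median of 2.81. VGF, a neurosecretory peptide precursor, rose by 5.47 ± 0.13 from a range of 1.00 to 1.66 to one of 6.41 to 7.14. GAST, the gene of the hormone gastrin, rose by 4.73. PEG10, a retrotransposon-derived imprinted gene, rose by 5.58 ± 0.20 from a Ctl median of -1.91 to a DoxyNaB median of 3.53. The Ctl and DoxyNaB ranges of CEND1, VGF and PEG10 did not overlap.

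Some of the strongest rises were also genes on which the agents did not simply add. CCN2, a secreted matricellular protein, rose from a range of -3.24 to -2.04 in Ctl to one of 2.79 to 3.14 in DoxyNaB, a change of 5.55 ± 0.19. Butyrate alone gave CCN2 a larger rise of 6.69, and the DoxyNaB range lay wholly below the NaB range of 3.68 to 4.57, a departure of -1.40 (adjusted p = 5.75e-03). CYSRT1, a cysteine-rich epidermal protein, went from a range of -1.60 to -0.79 in Ctl to one of 3.51 to 4.52 in DoxyNaB, a rise of 5.13 ± 0.12 against 3.64 for butyrate alone and a departure of 1.42 (adjusted p = 5.46e-05). FOS, an immediate early transcription factor, rose by 4.92 ± 0.14, from a Ctl median of -1.67 to a DoxyNaB median of 3.21. ARC, an activity-regulated cytoskeletal gene of neurons, rose by 4.57 ± 0.10 and lay 0.81 above the sum (adjusted p = 3.45e-03). EFR3B, ARHGAP27P2 and ZNF815P made up the rest of the 12 largest rises among genes measured on every array of both groups, at 5.47, 5.08 and 4.62.

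The largest fall among genes measured on every array of both groups was that of PDE4B, a phosphodiesterase that breaks down cyclic AMP. It went from a range of 2.21 to 2.40 on the Ctl arrays to one of -2.94 to -2.41 on the DoxyNaB arrays, a change of -4.99 ± 0.14, or 31.7-fold lower. HMGA2, an architectural chromatin protein of embryonic and tumor cells, fell from a Ctl median of 2.61 to a DoxyNaB median of -2.26, a change of -4.58 ± 0.15 with no overlap. MACROH2A2, a variant histone of repressed chromatin, changed by -4.21, and EREG, an EGF receptor ligand, by -3.63. Falls of between -4.63 and -3.66 were also measured for the membrane-raft protein MALL, ITPRIPL2, the chloride channel ANO1, the annexin ANXA3, EMP1, the adhesion adaptor TRIP6, the glutamine transporter SLC38A5 and the lymphotoxin receptor LTBR.

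Genes measured in one group and not well above background on any array of the other have only a lower bound of the fold. There were 26 such rises, of at least 3.67-fold to at least 29.0-fold, and 16 such falls, of at least 1.15-fold to at least 37.9-fold. The bound is the mean of the bright group over the dimmest signal that was well above background on each array of the dim group. THY1, a cell-surface glycoprotein of neurons and fibroblasts, was at least 29.0-fold higher with both agents, and the bile acid receptor gene NR1H4 at least 23.2-fold higher. DMBT1, a mucosal scavenger receptor of the intestine, was at least 18.9-fold higher, HS6ST3 at least 14.8-fold and DAPL1 at least 11.3-fold. ADGRF1, an adhesion G protein-coupled receptor, was at least 37.9-fold lower, and the axon guidance gene SEMA3A at least 8.81-fold lower. The bounds for LINC00326, LOXL4 and RAET1E were 3.87, 3.86 and 2.40-fold lower, and these 3 falls were not called after normexp background correction.

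Genes of cell division fell as a group, beside falls in 13.5% of all genes. Of 37 DNA replication genes tested, 24 fell and 0 rose, and their median change was -1.28. Of 40 genes of mitosis, 31 fell and 0 rose, with a median of -1.71. At an unadjusted p under 0.05 in limma, 1 of the replication genes and 0 of the mitosis genes were above Ctl. None of the replication or mitosis genes departed from the sum at an adjusted p under 0.01, and 1 in each list had an unadjusted p under 0.05. Their departures lay between -0.49 and 0.29 for replication and between -0.45 and 0.46 for mitosis. Of these, 14 of 37 and 6 of 40 were below 0, and the medians were 0.06 and 0.14, beside -0.03 for all genes. Most mitosis genes thus lay slightly above the sum.

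Of 14 genes of G1 cyclins, their kinases and E2F/RB, 9 fell and 1 rose, beside 13.5% and 20.4% of all genes. The falls included CCND1 (-2.97), which drives entry into S phase, the phosphatase CDC25A (-2.76) and the transcription factor E2F2 (-2.95), while the rise was CCND3, another D-type cyclin (1.29). The 8 inhibitors of cyclin-dependent kinases were split, with 3 rises and 2 falls. CDKN1C rose by 3.27, CDKN2D by 1.66 and CDKN2B by 1.28, and CDKN2A and CDKN1B changed by -2.05 and -1.29. CDKN1A, which encodes p21, had a change of 0.75 that did not reach the fold threshold.

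Ribosome biogenesis and nucleotide synthesis genes had more falls than rises, beside falls in 13.5% and rises in 20.4% of all genes. Of 30 ribosome biogenesis genes, 15 fell and 0 rose (median -1.04). All 30 had an unadjusted p under 0.05 and a level below Ctl. Of 23 nucleotide synthesis genes, 12 fell and 0 rose (median -1.09), with 1 above Ctl at an unadjusted p under 0.05. The thymidylate synthase gene TYMS changed by -3.06, though by -0.25 in experiment 4 and by -3.74 to -3.30 in the others. CTPS1, which makes CTP, changed by -2.14. These counts of falls became 26 and 19 after scaling to the array median, under which the median of all genes was -0.52. Of 11 genes of MYC, its partner MAX and their competitors, 2 rose, MXD1 (3.22) and MXD4 (2.55), which oppose MYC. MYC itself fell and the other 8 were not called (median 0.26). The shares that rose and fell, 18.2% and 9.09%, were near those of all genes.

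**Figure D2:**
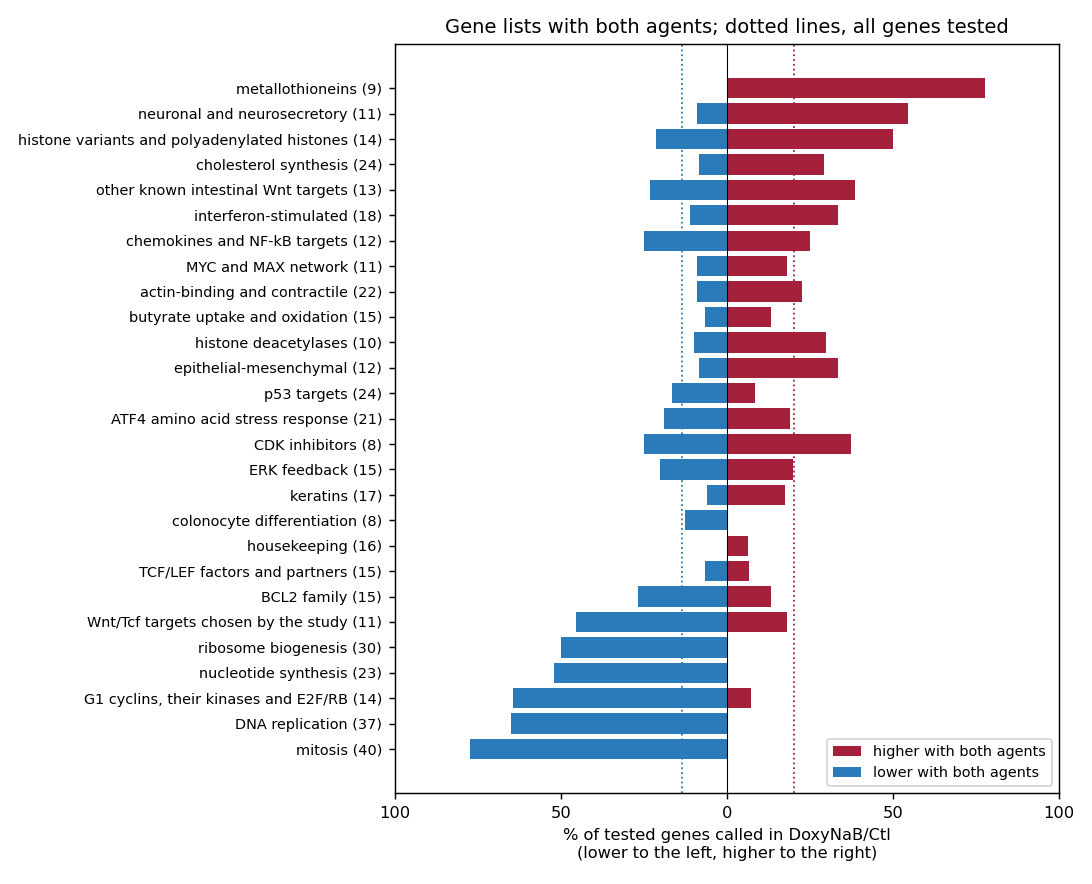
Share of each gene list's tested members (number in brackets) that was called between DoxyNaB and Ctl, in percent, with members higher with both agents drawn to the right and lower ones to the left, and dotted lines at the shares of all genes tested (20.4% and 13.5%). Lists are ordered by their median change, from metallothioneins, where 7 of 9 were higher, to mitosis, where 31 of 40 were lower.

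Histone and neuronal genes followed, beside rises in 20.4% and falls in 13.5% of all genes. Of 14 histone variants and polyadenylated histones, 7 rose and 3 fell (median 0.84). The rises included H2BC4 (2.60) and H2AC6 (2.33), which encode core histones. The falls were MACROH2A2, H2AX (-1.12) and H2AZ1 (-1.05). Of 10 histone deacetylase genes, a family that includes the protein targets of butyrate, 3 rose and 1 fell. The fall was HDAC7, at -2.76 to -1.95 in experiments 1, 3, 5 and 6, but -0.36 in experiment 4 and 0.61 in experiment 2. Of 11 neuronal and neurosecretory genes, 6 rose and 1 fell (median 1.496), though 3 rather than 6 were counted as higher among probes well above background on all 24 arrays. The microtubule regulator STMN2 rose by 4.72 and the synaptic vesicle protein SYP by 2.73, each well above background on 3 of the 6 Ctl arrays, whereas STMN3 changed by -1.37. The neurosecretory granule protein CHGA was well above background on 0 Ctl arrays and all 6 DoxyNaB arrays, and was at least 8.67-fold higher. Members that passed the detection filter only through the treatments in which they were high had to differ, so the count is a description.

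Of 9 metallothioneins, which bind zinc and copper, 7 rose and 0 fell (median 1.73), beside 20.4% and 13.5% of all genes. All 9 were above Ctl at an unadjusted p under 0.05, and MT2A rose by 2.02. Probes for this family may share signal, since its members are near-identical in sequence. Of 18 interferon-stimulated genes 6 rose and 2 fell, and their median of 0.49 became -0.10 after quantile normalization and -0.14 after scaling to the array median. IRF7, a regulator of interferon genes, rose by 3.72 and OASL by 3.28. Of 24 cholesterol synthesis genes 7 rose and 2 fell, with a median of 0.62 that became -0.01 after scaling to the array median. Within that list HMGCS1, an early enzyme of the pathway, rose by 2.57 and lay 1.36 above the sum (adjusted p = 6.47e-04).

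The lists that follow stand beside rises in 20.4% and falls in 13.5% of all genes. The BCL2 family, which sets the threshold for apoptosis, was mixed, with 2 rises and 4 falls among 15. The pro-apoptotic BMF and BCL2L11 rose by 3.30 and 1.53, BMF being well above background on 3 of the 6 Ctl arrays. BCL2L1, which encodes the protective BCL-XL, changed by -2.07, and the pro-apoptotic BID by -2.86. The pro-apoptotic PMAIP1, BIK and HRK lay 1.20, 0.88 and 0.55 below the sum, as did 1.19% of all genes. This count of 3 was 1 without experiment 2, 4, 5 or 6. Of 24 p53 targets 2 rose and 4 fell. Of 15 genes of ERK signaling and its feedback, 3 rose and 3 fell, or 20% each way, which is near those shares. FOS and EGR1 (2.95) were higher, and FOSL1 (-2.89) and ETV4 (-1.74) lower. Of 12 chemokine and NF-kB genes, 3 rose and 3 fell, the falls being the cytokine LIF (-3.53), NFKB1 (-3.26) and NFKBIA (-2.58).

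Lists of the colonic cell and of its skeleton showed few changes in common. Rises in 17.6% of the keratins and 22.7% of the actin-binding genes were near the 20.4% of all genes, of which 13.5% fell. Of 8 colonocyte differentiation genes that could be tested, 0 rose and 1, CEACAM1, fell, being well above background on 4 Ctl arrays and 0 DoxyNaB arrays, with 1 above and 2 below Ctl at an unadjusted p under 0.05 in limma. Of 17 keratins 3 rose and 1 fell. That was KRT23, which changed by -3.00 and lay 1.38 below the sum (adjusted p = 9.13e-04). Of 22 actin-binding and contractile genes 5 rose and 2 fell, of 12 epithelial-mesenchymal genes 4 rose and 1 fell, and of 15 genes of butyrate uptake and oxidation 2 rose and 1 fell. The epithelial-mesenchymal count of rises was 1 after normexp background correction. All 4 HMGA and oncofetal RNA-binding genes tested were below Ctl at an unadjusted p under 0.05, and 3 fell. Of 16 housekeeping genes, 1 rose, the transferrin receptor gene TFRC (1.41), and 0 fell, against 4 falls after scaling to the array median.

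The epithelial identity of the cells was checked against markers. Their counts stand beside rises in 20.4% and falls in 13.5% of all genes. KRT8 and KRT18 were at levels of 6.1 to 7.2 over the arrays, and of the 7 epithelial markers tested 1 fell, EPCAM (-1.26). Of 6 fibroblast markers 1 could be tested, COL1A1, which rose by 1.26. Of 5 leukocyte markers 3 could be tested and 2 rose, by up to 2.80, among them CD14 (1.34), and CD68 was at 0.99. Of 4 endothelial markers 2 could be tested. VWF, well above background on 3 of the 6 Ctl arrays, rose by 2.68, with CDH5 at 0.54. Markers that passed the detection filter only through the treatments in which they were high had to differ, so these counts are a description. The culture is a clonal line, and the part of other cells in these values was not tested.

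The departure from the sum of the single agents was then taken gene by gene. It is the DoxyNaB change minus the NaB change minus the Doxy change, on the log2 scale, so a negative departure means a level with both agents below that expected if the changes added. The agents added closely for most probes. The median size of the departure was 0.14, and it was under 0.5 in 90.6% of the probes tested and under 1 in 98.6%. A departure was called at an adjusted p under 0.01, with no threshold of size, in 191 genes (1.44%). Of these, 158 (1.19%) lay below the sum and 33 (0.249%) above it.

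Genes below the sum fell into distinct kinds of response. In 63 genes the level rose with both agents by less than the summed rise. In 55 genes it was lowered by more than the summed fall, and in 40 it was below Ctl where the sum lay above it. Of the genes above the sum, 24 exceeded a summed rise, 5 were above Ctl where the sum lay below it and 4 fell by less than the summed fall. These classes take the sign of the fitted values and not a test of each. The number of departing probes, 236 (1.24% of those tested), was 43 after normexp background correction, 9 after scaling to the array median and 85 without the replicate block, and it was 118 without experiment 5, so the counts describe this processing and these 6 experiments.

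**Figure D3:**
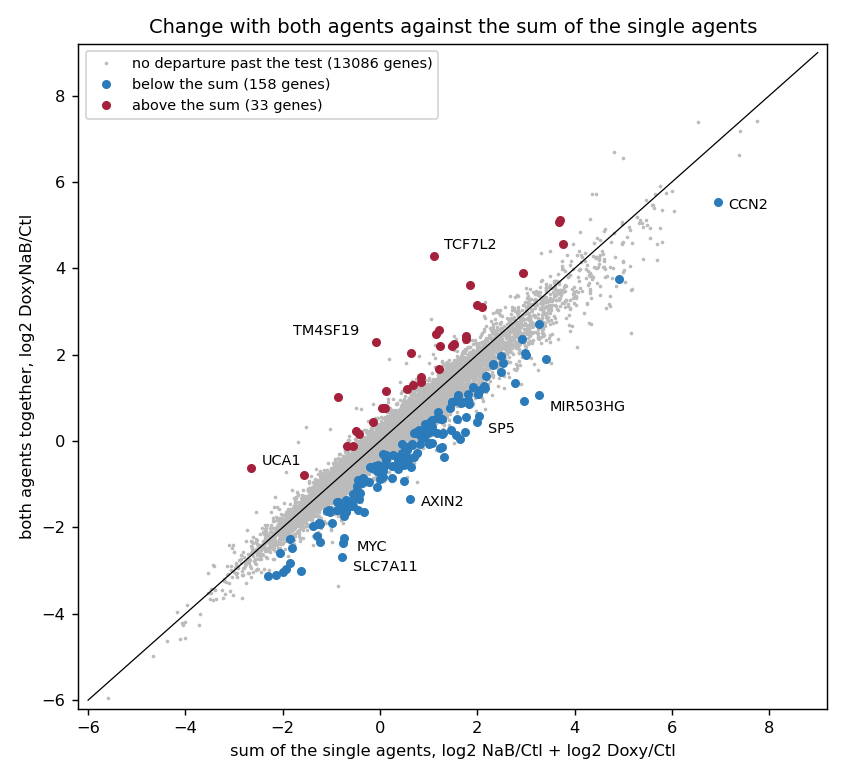
Change with both agents (vertical axis, DoxyNaB over Ctl) against the sum of the changes with each single agent (horizontal axis), both on the log2 scale, with 1 point per gene tested and the genes departing from the sum in color. Most genes lie along the diagonal where the changes add, with TCF7L2 above it and AXIN2 and MYC below it.

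The Wnt/Tcf targets that the study had selected lay below the sum as a group, and the most direct readout was AXIN2, a beta-catenin target that feeds back on the pathway. Its level ran from -0.34 to 0.40 (median -0.20) on the Ctl arrays, from -1.05 to 0.01 (median -0.87) with doxycycline, from 0.53 to 2.10 (median 0.98) with butyrate and from -1.75 to -1.04 (median -1.56) with both agents. Butyrate alone thus gave higher AXIN2 than Ctl on every array, and both agents together gave levels that did not overlap Ctl or NaB and whose highest value just reached the lowest one with doxycycline. AXIN2 fell by 1.34 ± 0.09 with both agents (2.52-fold, adjusted p = 3.95e-10), against a rise of 1.19 with butyrate. Its departure was -1.95 ± 0.13 (adjusted p = 8.24e-08), and it was below 0 in all 6 experiments. After normexp background correction the AXIN2 change with both agents was -0.95, under the fold threshold, and its departure still passed the test.

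MYC, the growth-promoting transcription factor and a classic Tcf target of colon cells, fell further with both agents than the sum. Its level ran from 4.17 to 4.64 (median 4.52) in Ctl and from 1.76 to 2.49 (median 2.05) in DoxyNaB, with NaB at a median of 3.65. MYC changed by -2.37 ± 0.06 with both agents, 5.17-fold lower, against -0.85 with butyrate, and its departure was -1.60 ± 0.09 (adjusted p = 2.13e-08). By experiment the MYC departure ran from -1.89 to -1.43.

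SP5, a transcription factor that Wnt signaling induces in many tissues, and DKK1, a secreted Wnt antagonist that is itself a target, both rose with butyrate and were near Ctl with both agents. SP5 had a Ctl range of -2.38 to -1.93, a NaB range of -0.14 to 0.38 and a DoxyNaB range of -2.03 to -1.34, which overlapped Ctl. Its change with both agents was 0.44 against 2.20 with butyrate, a departure of -1.56 ± 0.11. DKK1 had a Ctl range of 4.50 to 5.14, a NaB range of 6.09 to 7.12 and a DoxyNaB range of 4.56 to 5.11, inside that of Ctl. Its departure was -1.43 ± 0.16 (adjusted p = 5.10e-05). The departure of SP5 was -0.97 and not past the test after normexp background correction.

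The other members of the study's list followed with smaller departures. The stem cell factor gene KITLG changed by -3.04 with both agents and by -1.86 with butyrate, and CCND1 by -2.97 and -1.98. BMP4, a secreted growth factor, changed by -2.83 and -1.52. The stem and Paneth cell factor SOX9 had a level of 1.42 to 2.19 with both agents and of 1.99 to 2.47 in Ctl, which overlap. The departures of KITLG, CCND1, SOX9 and BMP4 were -1.05, -1.04, -1.01 and -0.99. The departures of VIM, SOX4 and SOX2, at -0.74, -0.51 and -0.32, did not pass the test. With both agents 2 of the 11 members rose and 5 fell, beside 20.4% and 13.5% of all genes. The rises were SOX2 (3.15) and VIM (1.20 to 1.36 with 1 experiment left out).

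Counted over the list, 8 of the 11 targets tested were called below the sum and 0 above, beside 1.19% and 0.249% of all genes. An unadjusted p under 0.05 was reached by 10 of 11 in limma. All 11 departures were below 0, with a median of -1.04 beside -0.03 for all genes tested. The study chose these targets on these samples, so the count is not independent evidence of their direction. The count was 8 with any 1 experiment left out and 7 after normexp background correction. After scaling to the array median with a floor of 5 it was 0, with 8 at an unadjusted p under 0.05. Of 13 other known intestinal Wnt targets, 5 rose and 3 fell with both agents (median 0.59) and 2 lay below the sum, with a median departure of -0.35. They were MSX1 and RNF43, a ubiquitin ligase that removes Wnt receptors, at -3.10 with both agents, -2.08 with butyrate and a departure of -0.96. Without experiment 3 or 5 the RNF43 departure was -0.90 or -0.91 (adjusted p = 0.0165 in each case). The intestinal stem cell receptor genes EPHB2 and EPHB3 rose by 1.98 and 3.28 with both agents, and NKD1, DKK4 and MSX2 by 1.62, 2.76 and 1.35, of which DKK4, well above background on 3 of the 6 Ctl arrays, was not called after normexp background correction. The adhesion receptor CD44 and the integrin activator FERMT1 changed by -2.75 and -2.01. NKD2, ZNRF3, TNFRSF19 and TCF7 were not called, at 0.48, -0.88, 0.83 and -0.59, and the departures of these 11 genes, from -0.87 to 0.41, did not pass the test. The stem cell markers LGR5 and ASCL2, with NOTUM, APCDD1, PROX1 and LEF1, were not well above background on all arrays of any treatment and were not tested. Of 15 TCF/LEF factors and partners, 1 rose, TCF7L2, and 1 fell, the corepressor TLE5 (-2.74).

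**Figure D4:**
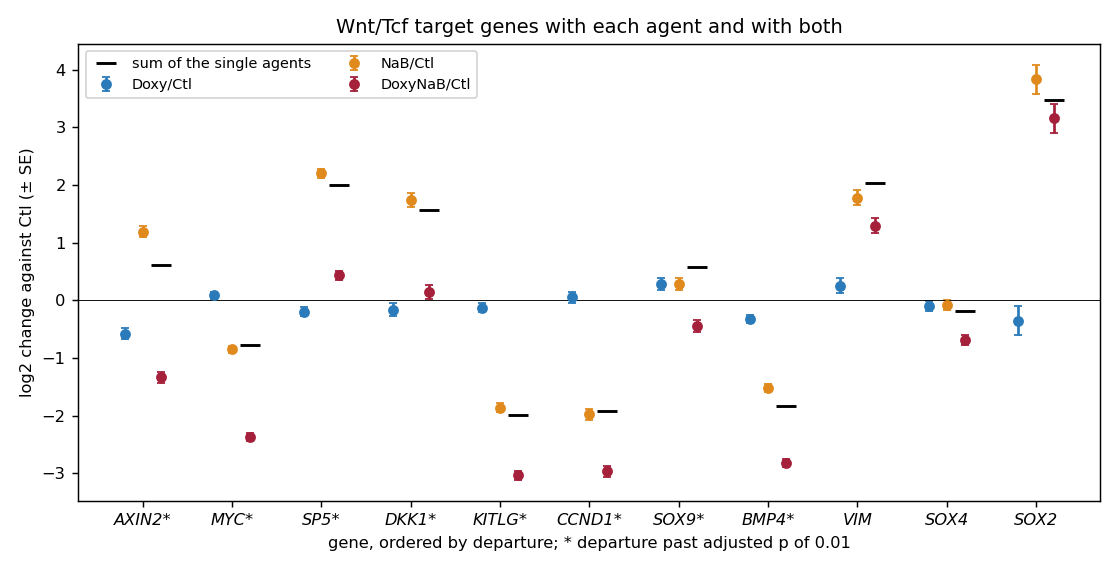
Change against Ctl on the log2 scale (points, with SE bars from the fit over 6 experiments) of the study's 11 Wnt/Tcf targets for doxycycline, for butyrate and for both agents, with a bar at the sum of the single agents. The combined value lies below the bar in all 11 genes, and an asterisk marks the 8 whose departure passed the test.

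Promoter letters are shown for the members where a match was found, since Tcf/Lef factors are known to bind CTTTGAT and close variants of it. The RefSeq promoter windows of build GRCh38.p14, each of 300 bases around a gene's start, matched 10493 of the 13277 genes tested. CTTTGAT and CTTTGAA were searched on both strands. Of the 7 study targets with a window, SP5 held both forms and DKK1 held CTTTGAA. The stretches around these matches, in the direction of transcription and with the matched letters in capitals, were as follows.
SP5, chr2:170715164-170715284, plus strand: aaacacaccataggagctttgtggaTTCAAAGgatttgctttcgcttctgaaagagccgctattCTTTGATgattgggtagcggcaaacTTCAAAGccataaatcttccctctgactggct
DKK1, chr10:52314161-52314217, plus strand: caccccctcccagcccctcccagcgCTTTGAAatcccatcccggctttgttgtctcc
CTTTGAT was present in 2.64% of all promoters in the table, in 1.43% of the tested genes' promoters and in 3 of 123 (2.44%) of those below the sum. CTTTGAA was present in 4.53%, 2.51% and 6 of 123 (4.88%). Most genes below the sum therefore had neither in this window, and distant sites were not searched. Of the 25 genes above the sum with a window, 0 held CTTTGAT and 2 (8.0%) held CTTTGAA.

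Genes of the amino acid stress response, which the transcription factor ATF4 switches on when amino acids are short, were the other list with many members below the sum. With doxycycline alone 20 of the 21 members tested were above Ctl, their median change was 0.68 beside 0.01 for all genes, and 11 passed the adjusted p of 0.01 as higher whatever their fold, as did 62 of all genes (0.467%). With both agents their median was 0.20, beside 0.10 for all genes. There were 4 rises and 4 falls among the 21, beside rises in 20.4% and falls in 13.5% of all genes. Of the 21, 7 lay below the sum with a median departure of -0.52, beside 1.19% and -0.03 for all genes.

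SLC7A11, the cystine transporter subunit, showed the widest gap. Its level ran from -1.03 to 0.69 (median 0.43) in Ctl, from 0.67 to 2.14 (median 1.48) with doxycycline, from -2.53 to -1.44 (median -2.11) with butyrate and from -3.19 to -2.06 (median -2.57) with both. Doxycycline thus raised it by 1.35, but the combined level was below that of butyrate alone at the median, though the ranges overlapped. The combined change was -2.68 ± 0.24 and the departure -1.89 ± 0.34 (adjusted p = 3.05e-03). With 1 experiment left out, the SLC7A11 departure passed only without experiment 1, and leaving out any other gave departures from -2.06 to -1.86 with adjusted p from 0.0110 to 0.0229.

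CHAC1, which breaks down glutathione, had a median level of 0.82 in Ctl, 2.50 with doxycycline, 1.12 with butyrate and 1.46 with both agents. Its departure was -1.20 (adjusted p = 6.07e-03). PCK2, a mitochondrial gluconeogenic enzyme, had medians of -0.55, 0.80, -0.46 and -0.32 in the same order, and doxycycline alone raised it by 1.25 against 0.20 for both agents. TRIB3, a pseudokinase that feeds back on ATF4, was highest with doxycycline, from 3.31 to 3.71, and the NaB and DoxyNaB ranges, 0.79 to 1.17 and 0.79 to 1.09, coincided. Its log2 differences from Ctl were 0.93, -1.59 and -1.54 for doxycycline, butyrate and both.

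ASNS, which makes asparagine, had medians of 3.56 in Ctl, 4.66 with doxycycline, 4.26 with butyrate and 4.68 with both, so that the combined rise of 1.08 equalled that of doxycycline alone, 1.09. SESN2, a stress-induced inhibitor of growth signaling, and PHGDH, the first enzyme of serine synthesis, departed by -0.67 and -0.56. DDIT3, which encodes the stress factor CHOP, differed from these. It rose by 3.43 with both agents, and its departure of 0.41 did not pass the test (adjusted p = 0.377). The count of 7 below the sum was 3 to 6 with 1 experiment left out, 4 after normexp background correction and 1 without the experiment block. After scaling to the array median it was 0 in limma, with 5 at an unadjusted p under 0.05.

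**Figure D5:**
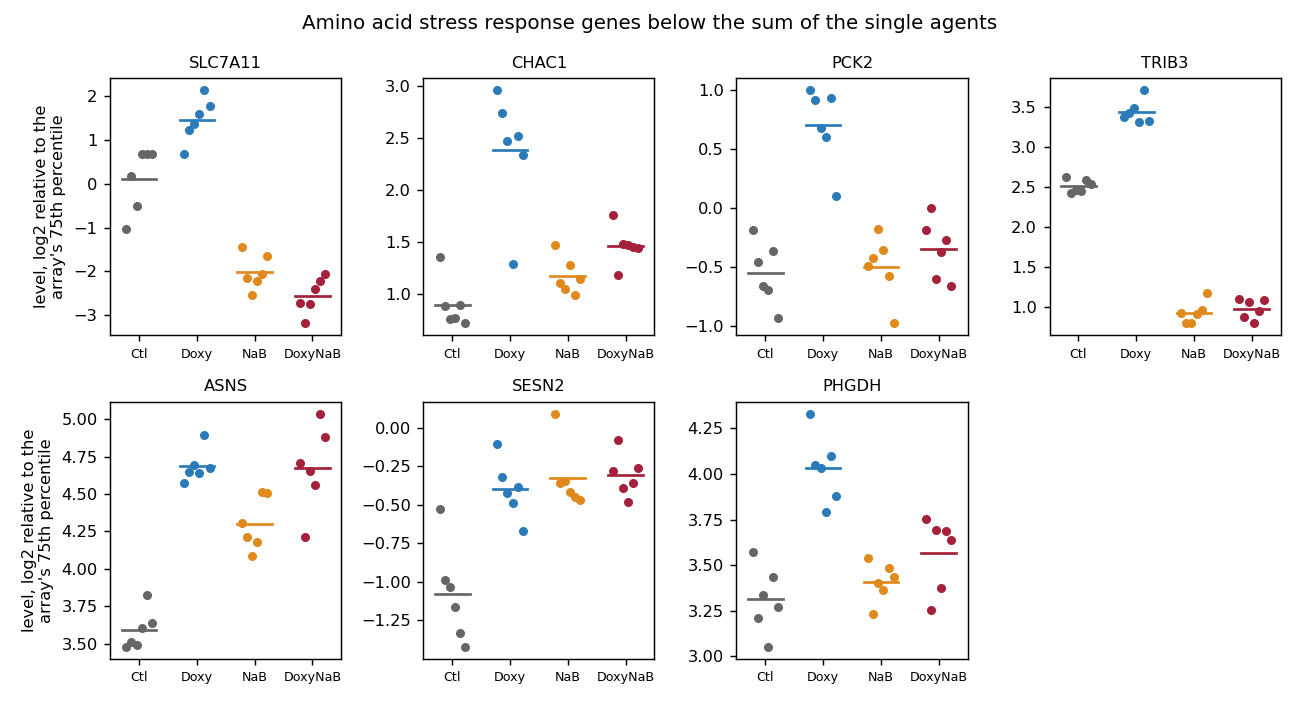
Levels of the 7 amino acid stress genes below the sum under the 4 treatments, 1 panel per gene with its own log2 axis relative to each array's 75th percentile, 1 point per experiment (n = 6) and a bar at the mean. PCK2, CHAC1, TRIB3 and PHGDH are highest with doxycycline alone, and in SLC7A11 and TRIB3 the arrays with butyrate lie below Ctl whether or not doxycycline was present.

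ATF4 with its C/EBP partners is known to bind TGATGNAA, and 2 of the 6 members below the sum that had a promoter window held it, on either strand.
ASNS, chr7:97872444-97872501, minus strand: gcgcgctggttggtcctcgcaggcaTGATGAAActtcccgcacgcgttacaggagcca
CHAC1, chr15:40953237-40953294, plus strand: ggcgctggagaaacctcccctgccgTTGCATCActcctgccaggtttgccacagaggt
The capitals mark the match. These letters were in 3.67% of all promoters, 1.70% of the tested genes' promoters and 6 of 123 (4.88%) of those below the sum.

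Among the other genes far below the sum, some were raised by butyrate and lower with both agents. MIR503HG, a noncoding host transcript of a microRNA, ran from 0.08 to 0.83 with butyrate and from -1.70 to -0.88 with both agents, against a Ctl median of -2.58. The ranges with butyrate and with both agents were separate, and the departure was -2.20 ± 0.19 (adjusted p = 1.27e-06). ZNF503, a zinc finger repressor, and its antisense neighbor ZNF503-AS2 departed together, by -1.61 and -2.03. ZNF503 ran from 1.71 to 2.33 in Ctl, from 3.43 to 4.24 with butyrate and from 1.53 to 2.28 with both, so that its combined range lay almost wholly within that of Ctl. MSX1, a homeobox repressor of developing tissues, had medians of 1.33 in Ctl, 3.16 with butyrate and 1.91 with both.

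ZFP36L1, which promotes the decay of AU-rich mRNAs, belonged to those that fell further than the sum. It ran from 3.74 to 3.96 in Ctl, from 2.71 to 3.39 with butyrate and from 1.32 to 1.94 with both, a combined change of -2.25 and a departure of -1.52. IFRD1, a transcriptional coregulator of differentiation, had a value of 0.65 over Ctl with doxycycline and of 1.11 with butyrate but of 0.21 with both. LONRF2 departed by -1.43 and missed the threshold when any experiment other than experiment 2 was left out, with departures from -1.53 to -1.27 and adjusted p from 0.0197 to 0.0542.

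Fewer genes lay above the sum, and these were led, after TCF7L2, by TM4SF19, a tetraspanin-like membrane protein. Its level ran from -4.10 to -3.33 in Ctl, from -4.61 to -2.74 with butyrate and from -2.05 to -1.16 with both agents, so that the combined range stood clear of the rest. The combined rise of 2.30 against 0.19 for butyrate gave a departure of 2.38 ± 0.28. UCA1, a long noncoding RNA first described in urothelial carcinoma, was far lower with butyrate alone than with both agents. It ran from 1.85 to 2.31 in Ctl, from -0.50 to -0.28 with butyrate and from 1.21 to 1.85 with both, a change of -2.50 with butyrate and of -0.63 with both. Its departure was 2.03 ± 0.12 (adjusted p = 2.41e-08).

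CDC25B, a phosphatase that promotes entry into mitosis, had opposite differences from Ctl with butyrate (-0.80) and with both agents (1.02). It had a median of 1.64 in Ctl, 0.90 with butyrate and 2.66 with both, and departed by 1.87 ± 0.13 (adjusted p = 8.24e-08). CDC25B was not in the mitosis list, whose members stayed within the departures given above. RNASE1, a secreted ribonuclease, rose by 2.05 against 0.86 with butyrate, and the cytokine IL11 by 2.49 against 1.25. SBSN, an epidermal protein, rose by 5.08 against 3.42. LHB and CGB3, beta subunits of gonadotropins encoded in one gene cluster, rose by 3.14 and 3.90 and departed by 1.15 and 0.96. Their sequences are close and their probes may share signal.

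Some of these departures lost their call when single experiments were left out. The departure of SBSN, 1.40, missed the threshold without experiment 1, 3 or 4 (1.36 to 1.45, adjusted p up to 0.0169), and that of IL11, 1.33, without experiment 1, 2, 4 or 5 (1.21 to 1.39, adjusted p up to 0.0419). That of CGB3 was kept only without experiment 3. AADACP1 and ARID3B departed by 1.06 and 0.98.

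Of the 25 genes above the sum with a promoter window, 6 held TGANTCA, where N stands for any base. This pattern takes in TGACTCA and TGAGTCA, which AP-1 factors such as FOS are known to bind, and is looser than those. TGANTCA was in 7.76% of all promoters, 4.69% of those of the tested genes and 4.07% of those below the sum. No test was made of these shares. Of the 6, RNASE1 matched only through TGATTCA. Among the 6 were TM4SF19, IL11 and CYSRT1, whose matches are shown in capitals.
TM4SF19, chr3:196338581-196338617, minus strand: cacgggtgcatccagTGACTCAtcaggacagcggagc
IL11, chr19:55370538-55370574, minus strand: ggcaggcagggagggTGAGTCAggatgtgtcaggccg
CYSRT1, chr9:137224967-137225003, plus strand: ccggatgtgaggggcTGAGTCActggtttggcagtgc
The search read letters only, and binding was not measured.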

How the data were processed

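RNA from each of the 24 cultures was hybridized to a 1-color Agilent whole-genome array of human transcripts. The deposited files hold the scanner output of each array from Agilent Feature Extraction 9.5.3.1, per the file headers. Per the file headers, the deposited intensity of each spot had been corrected by that software for background and spatial trend, and was not normalized between arrays. Replicates were not pooled. Depth has no counterpart here, and the number of arrays limits the precision. Between 52.7% and 88.1% of spots were well above background, with experiments 2 to 4 higher (78.4% to 88.1%) than experiments 1, 5 and 6 (52.7% to 62.6%).

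Control spots and outlier flags were left out. The log2 of the deposited signal was taken, the 75th percentile of the array's spots was subtracted and spots of a probe were averaged, which gave 34127 probes. A probe was tested if well above background on all 6 arrays of a treatment (18966 probes). Probes were named through their accessions with RefSeq, and a gene was its tested probe of highest mean level (13277 genes). limma 3.58.1 (R 4.3.3) was fitted to every array at once, with terms for treatment and for experiment number, as the study's methods name a paired test. A change was called above 2-fold if its p, adjusted by Benjamini-Hochberg, was under 0.01, and a departure on that p alone. The pairing comes from the experiment numbers in the labels. Deviations from the group mean of Ctl and DoxyNaB arrays of the same number correlated at 0.257 to 0.666, those of Doxy and DoxyNaB at 0.219 to 0.655 and those of NaB and DoxyNaB at -0.217 (experiment 3) to 0.851. In experiment 1 the butyrate arrays were on another slide and scan than the others, so slide and butyrate cannot be told apart there. Experiments 2 to 6 each lay on 1 slide.

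Genes were named by rule. These were the 12 largest rises and falls called among genes well above background on every array of both groups, the 5 highest bounds each way, the 12 largest departures each way with the same sign in all 6 experiments and detection on at least 5 of 6 arrays of each treatment, all TCF7L2 probes, all Wnt targets and 2 to 6 members of each other list. More members of the amino acid stress and BCL2 lists were named after their values were seen. Some genes of these lists are not reported here by name. The members and lists were chosen with earlier results of these data known. Motifs were searched on both strands of RefSeq promoter windows. The fitting was tested on simulated data. Alternatives covered background correction, scaling, filters, thresholds, the block, the probe of a gene, and left-out experiments. A 75th percentile taken over probes, and the t-test of the study's methods, were also tried, the former chosen after seeing the data.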

Additional observations from a re-analysis of the deposited data

Results flagged for a closer look

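In 55 checks of 6 values each, 3 gene values stood apart by Dixon's criterion, where chance gives about 1 in 20. The change of the most 3′ TCF7L2 probe between DoxyNaB and Ctl was 8.08 in experiment 1 and 5.79 to 6.395 in the others, on Ctl signals of which 1 of 6 was well above background, so that these differences are not exact. The departure of LHB was 1.92 in experiment 3 and 0.896 to 1.19 in the others. The departure of AXIN2 was -2.75 in experiment 1 and -1.96 to -1.53 in the others. The mean net signal of negative control spots was 248.9 on the DoxyNaB array of experiment 2 against 51.2 to 110.9 on the other DoxyNaB arrays. The 236 probes that departed from the sum stand out as a difference between the effect of doxycycline with and without butyrate, as tested above.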

How the results depend on the processing

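The number of probes called between DoxyNaB and Ctl, 6152, was 3300 after normexp background correction, 4004 among probes well above background on all 24 arrays, 9868 at a fold over 1.5 and 2918 at a fold over 3, and 5996 to 6224 with 1 experiment left out. For NaB the 6016 became 2991, 3880, 9817 and 2803 in the same order, and 5844 to 6093. For Doxy the 18 became 11 with normexp, 5 with scaling to the array median, 3 with the methods' t-test after adjustment, 55 and 3 at folds over 1.5 and 3, 10 with 1 probe per gene or the mean of its probes, and 14 to 19 with 1 experiment left out. The 236 departing probes became 43 with normexp, 9 with scaling to the array median (8 above and 1 below the sum), 144 without a filter, 85 without the replicate block and 421 at an adjusted p under 0.05. They became 17 at a fold over 3, 843 with the methods' t-test at its threshold and 0 after adjustment (2237 at an unadjusted p under 0.05), and 118 to 196 with 1 experiment left out, lowest without experiment 5. Experiments 2 to 4 alone gave 5 departures and 3 Doxy calls (953 and 801 at an unadjusted p under 0.05), and experiments 5 and 6 alone gave 0 and 0 in limma (2283 and 2926). Leaving out the DoxyNaB array of experiment 2 and the NaB array of experiment 3, whose negative controls were brightest, gave 269, and a percentile over probes 185. The most 5′ TCF7L2 probe reversed to 3.29 when all probes of the gene were averaged. Without the replicate block the SLC7A11 departure had an adjusted p of 0.024. With scaling to the array median 24 of 59 named departures lost their call, among them AXIN2 (adjusted p = 0.0205), MYC (0.124) and SP5 (0.141). Among the lists, cholesterol synthesis rises went from 7 to 4 with normexp or quantile normalization and to 2 with scaling to the array median, under which falls went from 2 to 6 for interferon-stimulated genes, from 3 to 7 for ERK feedback and from 4 to 8 for the amino acid stress list. The cause of these shifts was not tested. Probes not well above background have no measured level, and the number of arrays limits the precision.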
